A study of Mus musculus with 10 samples.

Results

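The B-lineage transcription factors examined were Tcf3, Ebf1, Pax5, Foxo1, Ikzf1, Lef1, Sox4, Bach2, Bcl6 and Spib, 10 of the 18193 genes that the array named through a probe set with 1 symbol. They were taken as every probe set, the set of short probes that reports 1 transcript, whose platform symbol was one of these names, which gave 32 of 45037 probe sets. Sox4 had 8 of them, Ebf1 5, Foxo1 4, Tcf3 and Bach2 3 each, Pax5, Ikzf1, Lef1 and Bcl6 2 each, and Spib 1. The cells were a mouse acute lymphoblastic leukaemia of C57BL/6 origin that carries the human p210 bcr/abl fusion and lacks the Ink4a/Arf locus, in both groups. It grew in C57BL/6 recipients that had been irradiated and given 5-fluorouracil. The recipients had received marrow and spleen cells together with the leukaemia, from C3.SW donors in the allogeneic group (5 animals) and from C57BL/6 donors in the syngeneic group (5 animals). Leukaemia was flow-purified after 2 to 3 weeks and passed on, and after 3 serial transplants the cells were sorted from marrow on green fluorescent protein and hybridised, 1 array per animal. The labels do not say if animals of 1 group were seeded from a common donor of leukaemia, and the p-values cover only the variation among the 10 animals. The leukaemia is a single line in both groups as far as the labels say, so the animals sample its growth and not different leukaemias.

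B-lymphoid identity is set up in steps. The E2A proteins encoded by Tcf3 bind E-box motifs and switch on Ebf1 and Foxo1, and together these factors activate Pax5, which holds cells in the B lineage by activating B-cell genes and silencing genes of other lineages. Ikaros, encoded by Ikzf1, acts beside them. In human leukaemia with BCR-ABL1, IKZF1 and PAX5 are often deleted or mutated.

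The upstream sequences of 3 genes of this circuit with a single annotated start are shown because an E-box or an EBF1 motif in them is the part of the circuit that can be read from sequence. They are the 250 bases before the RefSeq start on build GRCm38.p6, on the strand of the gene, and capitals mark each E-box (CANNTG) and EBF1 motif (TCCC, any 2 bases, GGGA), searched on both strands. Tcf3 lies at chr10:80433636-80433885 (minus strand), Pax5 at chr4:44710695-44710944 (minus strand) and Foxo1 at chr3:52268087-52268336 (plus strand).
Tcf3: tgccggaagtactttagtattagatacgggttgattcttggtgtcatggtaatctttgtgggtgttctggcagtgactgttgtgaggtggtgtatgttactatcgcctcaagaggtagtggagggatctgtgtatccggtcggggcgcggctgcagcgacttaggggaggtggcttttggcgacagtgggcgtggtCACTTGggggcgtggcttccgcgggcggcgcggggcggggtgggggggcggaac
Pax5: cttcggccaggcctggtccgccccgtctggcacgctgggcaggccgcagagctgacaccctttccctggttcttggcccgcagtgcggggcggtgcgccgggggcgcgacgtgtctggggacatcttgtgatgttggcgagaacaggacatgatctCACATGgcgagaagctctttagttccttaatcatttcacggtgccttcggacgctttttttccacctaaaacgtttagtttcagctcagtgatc
Foxo1: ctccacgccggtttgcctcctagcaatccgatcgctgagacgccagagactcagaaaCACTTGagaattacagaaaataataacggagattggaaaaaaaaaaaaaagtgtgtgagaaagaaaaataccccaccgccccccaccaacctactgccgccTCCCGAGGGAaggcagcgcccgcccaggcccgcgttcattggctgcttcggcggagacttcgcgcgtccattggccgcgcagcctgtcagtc
The E-box began 54 bases before the start in Tcf3, 94 in Pax5 and 193 in Foxo1, and the EBF1 motif of Foxo1 began 92 bases before its start. Over the 16 annotated starts of the 10 genes, 11 windows of 8 genes held an E-box (none of Ikzf1 or Bach2 did), and 66.2% of all 32851 windows of this length did. The EBF1 motif was found in 1 of the 16, that of Foxo1, and in 0.779% of all windows. The motif GAAA, any 2 bases, GAAA, which interferon-responsive promoters often carry, was found in 1 of the 16 (a start of Ebf1) and in 2.98% of all windows. The motif TTCNNNGAA, which STAT factors can bind, occurred in 3 of the 16, at starts of Bach2 and Bcl6, and in 7.02% of all windows. A match describes these letters only and is not evidence of binding.

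No B-lineage transcription factor passed the test between leukaemia from allogeneic and syngeneic recipients. Of the 32 probe sets 0 had an adjusted p under 0.05 by limma, a linear model fitted over all probe sets, with adjusted p-values from 0.114 to 0.982. Over all 45037 probe sets 0.411% passed (0.271% higher, 0.14% lower), and of the leading probe sets, the brightest of each gene, 0 of 10 passed against 0.423% of all genes. At an unadjusted p under 0.05 there were 4 of the 32 (3 lower, 1 higher), against 16.9% of all probe sets (9.02% lower, 7.9% higher). The 4 were both probe sets of Pax5, 1 of Lef1 and 1 of Sox4, the last below background on every array. Of the 32, 16 had a positive and 16 a negative difference, with a median of 0.003 on the log2 scale, and the median over all probe sets was -0.014. By leading probe set, 2 of the 10 genes had a positive and 8 a negative difference, with a median of -0.141. Over the 18193 genes 9319 were positive and 8872 negative, with a median of 0.011. None of the 32 had groups without overlap, which 4.74% of all probe sets had. In simulated data of this size, a log2 change of 1 was called for 32% of raised probe sets and 34% of lowered ones. The simulation used independent normal noise and gave a probe set the same SD in both groups, which the real data do not have. The changed probe sets were drawn from all but the dimmest of the array, so over the array such changes are often missed in data of that kind. Median SDs were 0.509 in allogeneic and 0.294 in syngeneic animals over all probe sets. For the leading probe sets of the 9 genes other than Pax5 they were 0.223 and 0.113, and the share called at these SDs was not simulated. These are sorted cells measured in bulk, so fewer cells of a kind and less RNA per cell cannot be told apart.

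As a sign of RNA quality, the Gapdh control probe sets gave a ratio of the 3' end over the 5' end of 1.38 to 1.59 in allogeneic and 1.46 to 1.56 in syngeneic animals. The highest of the allogeneic group were animals 3 (1.589) and 1 (1.552), also by the actin control probe sets (1.743 and 1.634). Syngeneic animal 1 had 1.559 for Gapdh and 1.657 for actin. The arrays of allogeneic animals 1, 3 and 4 had lower quartiles of 18.7 to 19.5 intensity units as deposited, against 13.8 to 14.4 on the remaining 7 arrays. Probe sets for bacterial transcripts gave the background limit of an array, which lay between 4.5 and 5.32 on the log2 scale. Of the 32 probe sets, 25 exceeded the limit on all 10 arrays, 2 on none and 5 on some. Levels below are log2 intensities after quantile normalization. Since each probe set has its own brightness, levels are compared between animals and with the background limit, not between genes. The leading probe set of a gene is that of highest mean over the 10 arrays.

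**Figure D1:**
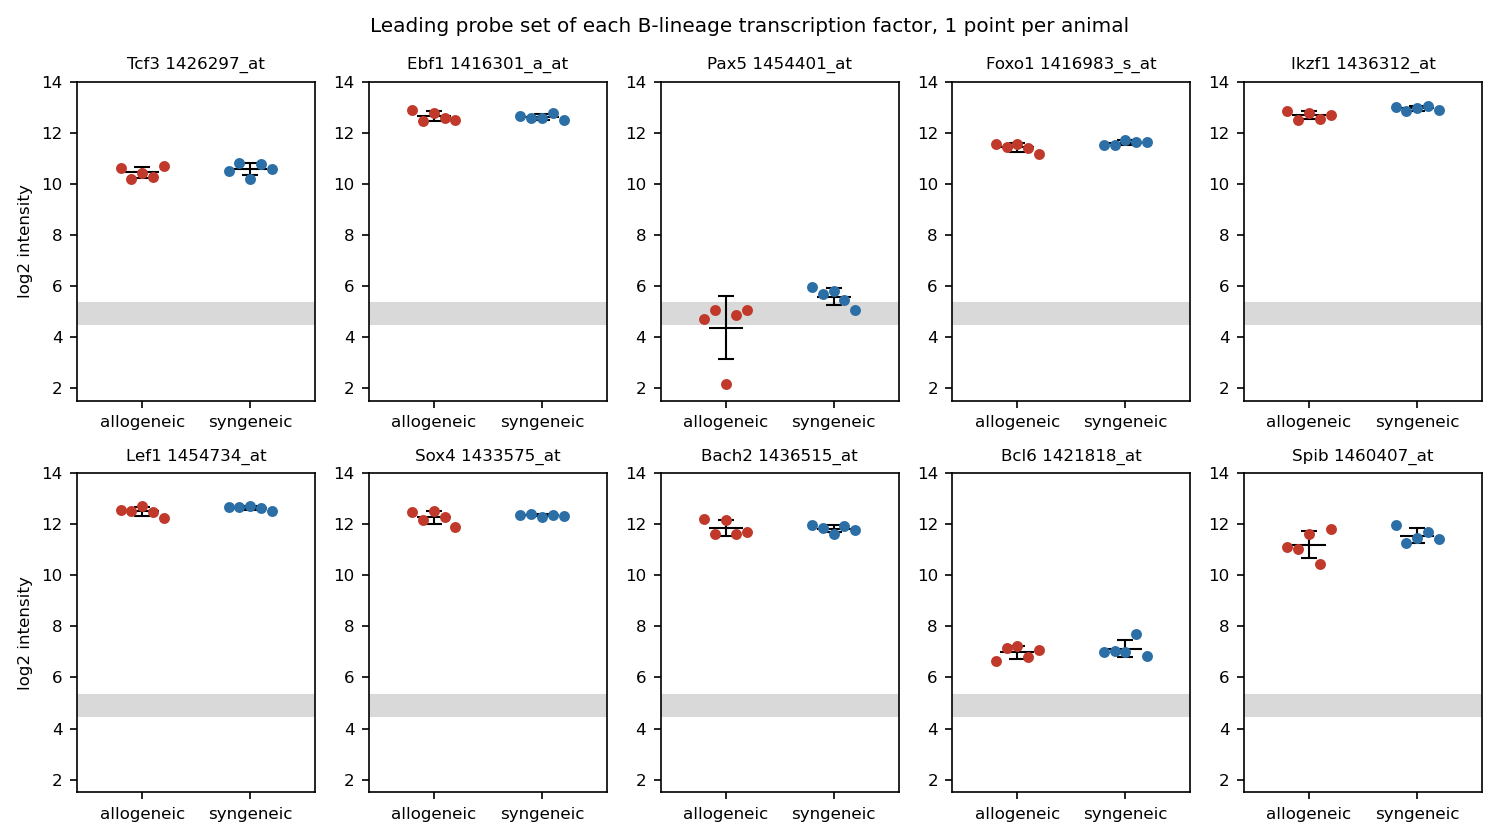
Log2 intensity (y axis) of the leading probe set of each of the 10 genes, with 1 point per animal, allogeneic left and syngeneic right in each panel. Bars show mean ± SD (n = 5), and the grey band spans the background limits of the 10 arrays, 4.5 to 5.32. Pax5 is the only gene of the 10 whose points reach the band, and the other 9 lie above it in every animal.

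The initiating factors were well above background and nearly level between groups. Tcf3, through its leading probe set 1426297_at, had 10.62, 10.18, 10.43, 10.28 and 10.71 in allogeneic animals 1 to 5 and 10.52, 10.82, 10.20, 10.76 and 10.59 in syngeneic animals 1 to 5. The ranges coincide, and the difference was -0.14 (SE 0.17, adjusted p = 0.716 by limma, 95% interval -0.50 to 0.23). The other Tcf3 probe sets differed by 0.08 and 0.12, so the sign depended on the probe set. Ebf1, which encodes an early B-cell factor that opens B-lineage chromatin, had 12.90, 12.44, 12.78, 12.55 and 12.49 in allogeneic animals on 1416301_a_at and 12.65, 12.59, 12.56, 12.78 and 12.47 in syngeneic animals. Its difference was 0.02 (SE 0.14, adjusted p = 0.953 by limma, 95% interval -0.28 to 0.32). Across its 5 probe sets differences ran from -0.12 to 0.49, the last from 1457441_at, the dimmest of them. That probe set held 6.73, 7.45, 5.71, 7.73 and 6.60 in allogeneic and 6.17, 6.84, 6.62, 6.27 and 5.90 in syngeneic animals, with allogeneic animals 2 and 4 highest and 3 lowest. The 4 brighter Ebf1 probe sets had allogeneic animal 1 as the highest of the allogeneic group, so the dim probe set did not follow them. Without allogeneic animal 4 the difference of the dim probe set was 0.27, and without allogeneic animal 3 it was 0.77.

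Pax5 was near background in every animal, and the allogeneic values were lower on both probe sets without passing the test. On 1454401_at the values were 4.72, 5.04, 2.16, 4.87 and 5.06 in allogeneic animals 1 to 5, against 5.94, 5.69, 5.78, 5.44 and 5.06 in syngeneic animals 1 to 5. Allogeneic animal 3 stood far below the rest, and the highest allogeneic value met the lowest syngeneic one at 5.06. The probe set exceeded the limit on 2 of 5 allogeneic and 4 of 5 syngeneic arrays. The means were 4.37 ± 1.25 in allogeneic and 5.58 ± 0.34 in syngeneic animals (SD, n = 5 each), and the difference was -1.21 (SE 0.53, adjusted p = 0.279 by limma, 95% interval -2.38 to -0.04). Without allogeneic animal 3 it was -0.66 (adjusted p = 0.169), and without allogeneic animals 1, 3 and 4 it was -0.53 (adjusted p = 0.238).

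On the second Pax5 probe set, 1421765_at, the values were 3.68, 2.31, 4.18, 3.69 and 3.99 in allogeneic animals and 5.53, 4.86, 3.83, 4.69 and 4.14 in syngeneic animals. Here animal 2 was the lowest allogeneic sample and animal 3, the lowest on the first probe set, was the highest, and the groups overlapped. It exceeded the limit on 0 of 5 allogeneic and 2 of 5 syngeneic arrays, and the syngeneic mean of 4.61 lay under the allogeneic limit mean of 4.84, so no bound on a fold can be given. The difference was -1.04 (SE 0.41, adjusted p = 0.239 by limma). When both probe sets were averaged per animal, the values were 4.20, 3.68, 3.17, 4.28 and 4.53 in allogeneic and 5.74, 5.27, 4.81, 5.07 and 4.60 in syngeneic animals. All allogeneic averages then lay below all syngeneic ones, as did those of 1.98% of 18193 genes, and 7.23% of genes had a lower mean at an unadjusted p under 0.05. The difference of the average was -1.13 (SE 0.29) with an adjusted p of 0.134 by limma over genes, and this average was singled out after its values were seen.

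**Figure D2:**
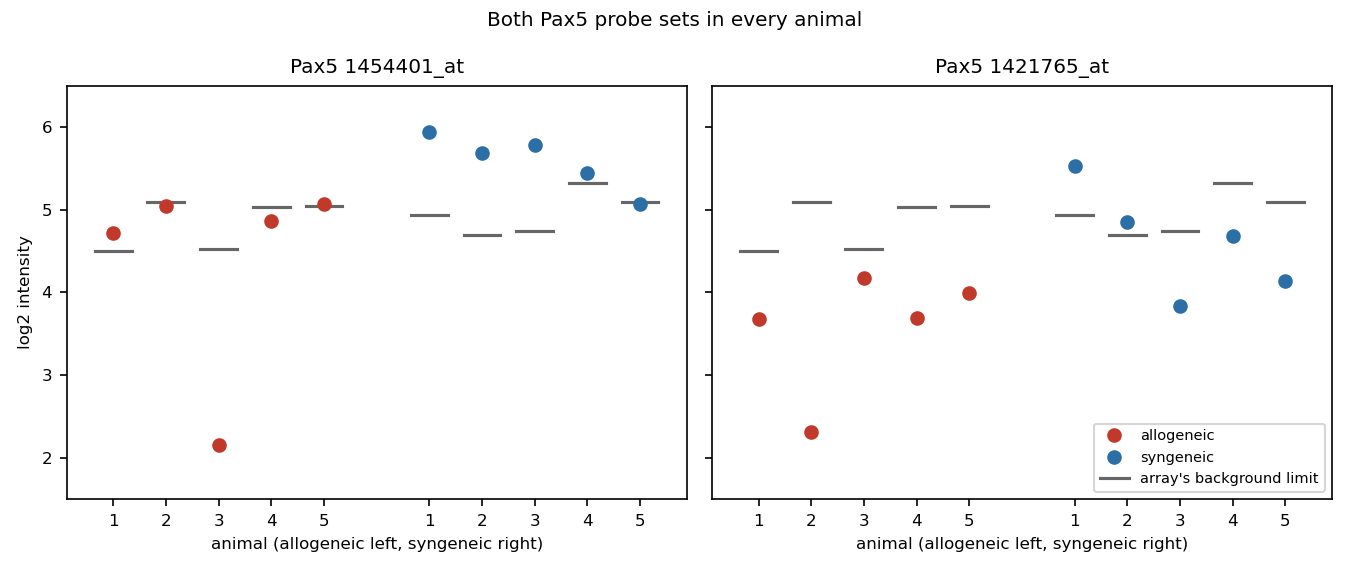
Log2 intensity (y axis) of both Pax5 probe sets in each animal (x axis, allogeneic 1 to 5 left and syngeneic 1 to 5 right), with the background limit of each array as a grey line. On 1454401_at, 2 allogeneic and 4 syngeneic points lie above their line, and on 1421765_at 0 allogeneic and 2 syngeneic points do. Allogeneic animal 3 is lowest on the first (2.16) and allogeneic animal 2 on the second (2.31).

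Genes that PAX5 and EBF1 are known to activate were bright in the same arrays. Of 14 measured members of the list of activated targets, 14 exceeded the background limit on all 10 arrays, 0 rose or fell by limma and the median difference was 0.01. Vpreb1, which encodes the surrogate light chain of the pre-B receptor, averaged 13.68 ± 0.03 in allogeneic and 13.64 ± 0.03 in syngeneic animals (SD, n = 5 each). Cd79a, a signalling chain of the B-cell receptor, averaged 13.04 in both groups, and Blnk, the adaptor below that receptor, 12.47 in allogeneic and 12.44 in syngeneic animals. The members with the smallest p were Cr2, a complement receptor gene (difference -0.55, SE 0.27, adjusted p = 0.336 by limma), and Blk, a Src-family kinase gene (-0.29, SE 0.14, adjusted p = 0.343). Of 8 genes that PAX5 represses, 0 rose or fell, and the median difference was -0.12. Among these, Csf1r, the receptor for macrophage colony-stimulating factor, had means of 5.71 in allogeneic and 5.82 in syngeneic animals, Flt3, a progenitor cytokine receptor gene, 5.83 in allogeneic and 5.57 in syngeneic animals, and Cd28, a T-cell costimulatory receptor gene, never exceeded the limit. Ccl3, a chemokine gene of the same list, had the smallest p, with a difference of -1.22 (SE 0.68, adjusted p = 0.396). It exceeded the limit on 1 of 5 allogeneic and 4 of 5 syngeneic arrays, so most of its allogeneic values lie in the background. Xbp1, a factor of the secretory programme, averaged 12.63 in allogeneic and 12.93 in syngeneic animals. Its difference was -0.30 (SE 0.18, adjusted p = 0.430). Notch1 of the same list was also bright, at 11.18 in allogeneic and 11.07 in syngeneic animals. Of the 8 genes, 5 exceeded the limit on all 10 arrays, so the list was not dim as a whole.

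The 5 genes whose levels across the 10 arrays were most like those of Pax5 on 1454401_at were Cacna1b, 4921525O09Rik, Pglyrp2, Hypk and Ankrd23. Likeness was the root mean square difference between log2 values centred on their mean, over 10455 genes above the limit on all arrays. It was 0.24, 0.33, 0.35, 0.36 and 0.37 in that order, where Pax5 itself varied by 1.02 about its mean. Each of the 5 had its lowest value in allogeneic animal 3, such as 4.63 for Cacna1b, a calcium channel gene, against 6.69 to 7.17 in the other allogeneic and 7.36 to 7.87 in the syngeneic animals. On this probe set Pax5 was itself far lower in allogeneic animal 3, at 2.16, below that array's limit of 4.53. The measure therefore favours genes low in that animal, and the shared low is not a separate result. On the second Pax5 probe set that animal was the highest of the allogeneic group. None of the 5 passed the test (adjusted p-values of 0.213 to 0.313 by limma).

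Foxo1 and Ikzf1 were bright, with allogeneic means slightly lower on their leading probe sets. Foxo1, a forkhead factor that activates the recombinase genes and Il7r, had 11.57, 11.45, 11.54, 11.38 and 11.16 in allogeneic and 11.53, 11.52, 11.73, 11.64 and 11.64 in syngeneic animals on 1416983_s_at. Allogeneic animal 5 was the lowest and the groups overlapped, with a difference of -0.19 (SE 0.12, adjusted p = 0.467 by limma), which was -0.13 without that animal. Its other 3 probe sets differed by -0.24, 0.09 and 0.07. Of 7 measured FOXO1 targets 0 rose or fell, with a median difference of 0.04. Il7r, the interleukin-7 receptor chain on which B precursors depend, averaged 12.74 in allogeneic and 12.70 in syngeneic animals, and Rag1, a recombinase gene, 10.52 ± 0.84 in allogeneic and 10.06 ± 0.36 in syngeneic animals (SD, n = 5 each, adjusted p = 0.573 by limma). Irs2, an insulin receptor substrate gene, differed by -0.24 (SE 0.16, adjusted p = 0.466).

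Ikzf1 had 12.86, 12.50, 12.77, 12.54 and 12.70 in allogeneic animals and 13.01, 12.86, 12.95, 13.04 and 12.87 in syngeneic animals on 1436312_at. The groups overlapped only where allogeneic animal 1 (12.86) met syngeneic animal 2 (12.86). The means were 12.68 ± 0.15 in allogeneic and 12.95 ± 0.08 in syngeneic animals (SD, n = 5 each), and the difference of -0.27 (SE 0.12) had an adjusted p of 0.296 by limma, with a 95% interval of -0.54 to 0.00. Over the 20 alternative settings the difference ran from -0.34 to -0.23 and the adjusted p from 0.0955 to 0.469. The dim second probe set, 1421303_at, differed by -0.22 (SE 0.16) and exceeded the limit on 4 of 5 allogeneic and 5 of 5 syngeneic arrays.

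Lef1 and Sox4 encode HMG-box factors, the first a nuclear partner of Wnt signalling and both needed in early B precursors. The dimmer Lef1 probe set, 1421299_a_at, had 6.62, 6.79, 6.05, 6.54 and 6.05 in allogeneic and 7.03, 6.89, 6.98, 6.75 and 7.06 in syngeneic animals. Allogeneic animals 3 and 5 were the lowest, and only allogeneic animal 2 reached into the syngeneic range. The difference was -0.53 (SE 0.18, adjusted p = 0.182 by limma), and over the settings that test probe sets its lowest adjusted p was 0.097. The leading Lef1 probe set, 1454734_at, had 12.55, 12.51, 12.72, 12.48 and 12.23 in allogeneic and 12.69, 12.68, 12.70, 12.64 and 12.52 in syngeneic animals, a difference of -0.15 (SE 0.13, adjusted p = 0.585). Allogeneic animal 5 was lowest on both, and without it the difference on the leading probe set was -0.08 (adjusted p = 0.770).

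Of the 8 Sox4 probe sets, 5 had a positive and 3 a negative difference. The leading one, 1433575_at, had 12.49, 12.18, 12.51, 12.26 and 11.87 in allogeneic and 12.35, 12.39, 12.28, 12.36 and 12.33 in syngeneic animals. The syngeneic animals differed by at most 0.105 among themselves, while the allogeneic ones lay on both sides of them, and the difference was -0.08 (SE 0.15, adjusted p = 0.822 by limma). On 1419155_a_at allogeneic animal 3 was highest of all 10, at 8.37, with the other allogeneic animals between 6.91 and 7.42 and the syngeneic ones between 6.58 and 7.55. Its difference was 0.26, and 0.005 without that animal. The probe set with the smallest p of the 32, 1458332_x_at, lay at 1.57 to 3.04 in allogeneic and 0.68 to 1.66 in syngeneic animals, below the limit on all 10 arrays. It is not well above background in either group and has no fold. It missed the test over all arrays (adjusted p = 0.114) and passed without allogeneic animal 1 (adjusted p = 0.0334) and without allogeneic animals 1, 3 and 4 (adjusted p = 0.0325), where the count of the 32 was 1.

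Bach2 and Bcl6 encode repressors that hold back the plasma cell programme, and Bcl6 is also known from germinal centre B cells. Bach2 varied more among allogeneic animals than between groups. On 1445460_at it had 11.76, 9.86, 11.20, 10.57 and 9.97 in allogeneic and 10.43, 10.05, 9.95, 10.67 and 10.40 in syngeneic animals. Allogeneic animals 1 and 3 were the highest of all 10 on each of the 3 Bach2 probe sets, with 12.20 and 12.15 on the leading one, 1436515_at, where the other 8 lay between 11.60 and 11.96. SDs on 1445460_at were 0.81 in allogeneic and 0.30 in syngeneic animals, and the difference was 0.37 (SE 0.36, adjusted p = 0.636 by limma). Leaving out allogeneic animal 1 gave 0.10, leaving out animal 3 of that group gave 0.24 and leaving out animal 2 gave 0.58. The other Bach2 differences were 0.03 and 0.10. Allogeneic animals 1 and 3 are among the 3 whose arrays had a raised lower quartile. Animal 4 of that group, which shared it, had 10.57 on 1445460_at and 11.62 on the leading probe set. Animals 1 and 3 also had the highest Gapdh ratios of the allogeneic group (1.552 and 1.589, against 1.381 in animal 4). Syngeneic animal 1 had a ratio of 1.559 and 10.43 on 1445460_at. The part of the lower quartile or of RNA quality in these values was not tested.

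Bcl6 on its leading probe set, 1421818_at, had 6.64, 7.15, 7.25, 6.79 and 7.09 in allogeneic and 7.01, 7.02, 7.01, 7.69 and 6.84 in syngeneic animals, a difference of -0.13 (SE 0.20, adjusted p = 0.775 by limma). On 1450381_a_at it had 4.70, 5.07, 6.95, 5.59 and 5.66 in allogeneic and 4.98, 5.09, 4.66, 5.40 and 4.83 in syngeneic animals. Allogeneic animal 3 stood above the rest, and the difference was 0.60 (SE 0.37, adjusted p = 0.443), and 0.26 without that animal (adjusted p = 0.615). The probe sets thus differed in sign. Of the 7 plasma cell genes that such repressors hold back or that mark that state, 0 rose or fell, and all 7 differences were negative with a median of -0.15. Jchain, the joining chain of secreted antibody, differed by -0.83 (SE 0.27, adjusted p = 0.171), and Prdm1, the master factor of plasma cells, by -0.15 (SE 0.30, adjusted p = 0.839).

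Spib, an Ets-family factor related to PU.1, had 11.12, 11.02, 11.60, 10.45 and 11.79 in allogeneic and 11.98, 11.27, 11.44, 11.67 and 11.40 in syngeneic animals. Allogeneic animal 4 was the lowest and the groups overlapped. The means were 11.20 ± 0.53 in allogeneic and 11.55 ± 0.28 in syngeneic animals (SD, n = 5 each), with a difference of -0.36 (SE 0.26, adjusted p = 0.512 by limma), which was -0.17 without allogeneic animal 4 (adjusted p = 0.762).

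**Figure D3:**
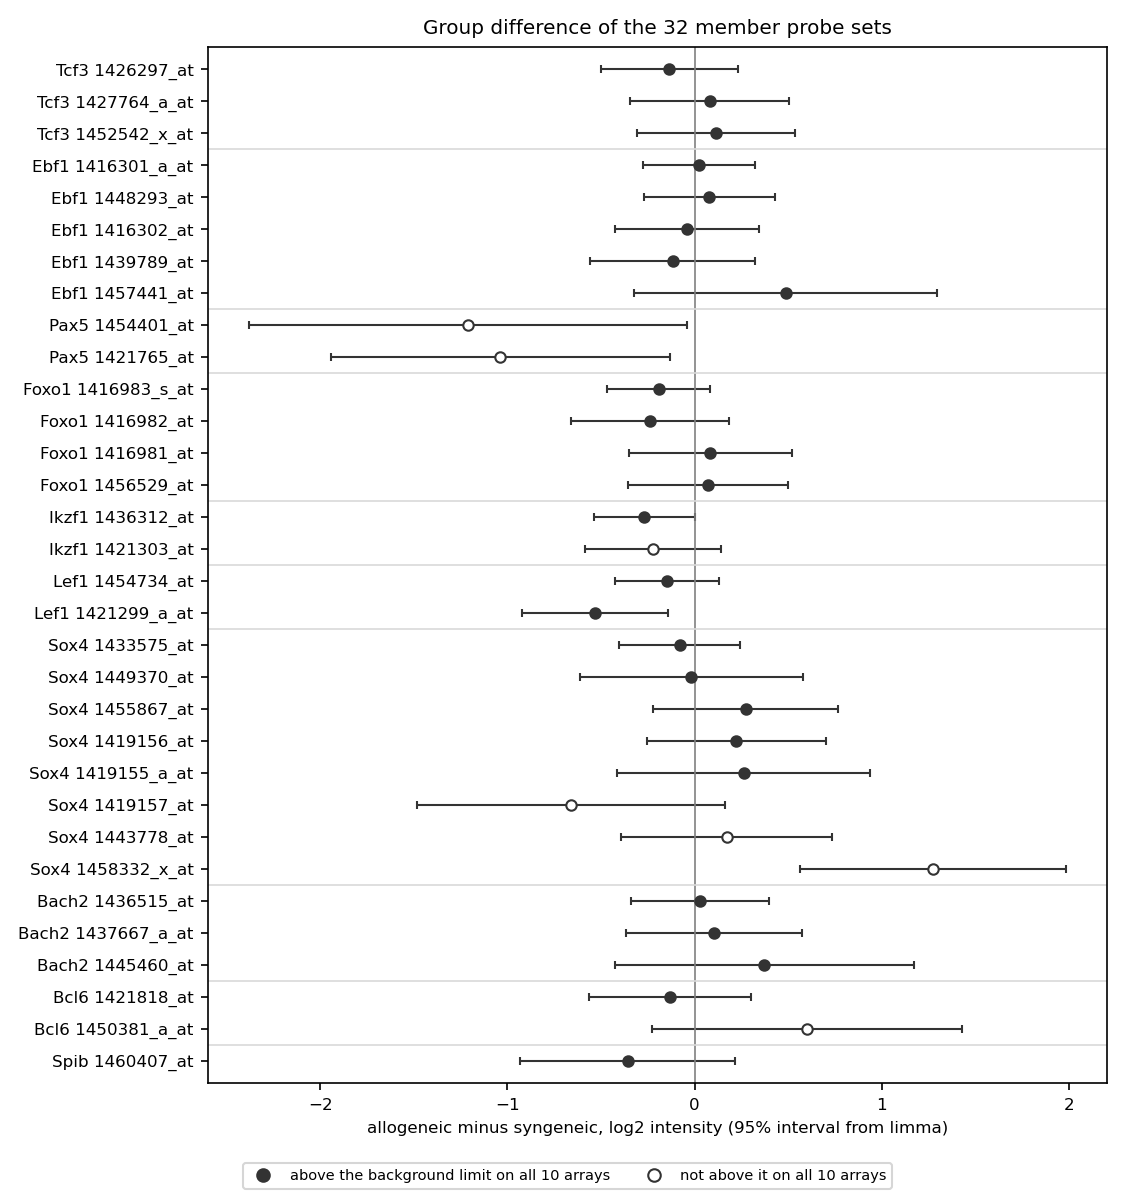
Allogeneic minus syngeneic difference in log2 intensity (x axis) of the 32 probe sets (y axis, grouped by gene) with 95% intervals from limma. Filled points exceeded the background limit on all 10 arrays and open ones did not. Intervals of single probe sets that leave out 0 belong to Pax5, Lef1 1421299_a_at and Sox4 1458332_x_at, and none of these passed after adjustment over all probe sets.

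Animals differed from each other more within the allogeneic group. The SD was larger among allogeneic than among syngeneic animals for 26 of the 32 probe sets, and for 77.3% of all probe sets, so this was shared by the array as a whole. Among the 9 genes whose leading probe set exceeded the limit on every array, allogeneic animal 4 lay above the syngeneic mean for 0 and allogeneic animal 2 for 1. Allogeneic animal 3 lay above it for 6 and syngeneic animal 4 for 8. Allogeneic animal 2 was the lowest of all 10 for 4 of the 9 genes and allogeneic animal 5 for 3. Such counts per animal were not taken over all genes, so they are not read as a trait of these factors.

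**Figure D4:**
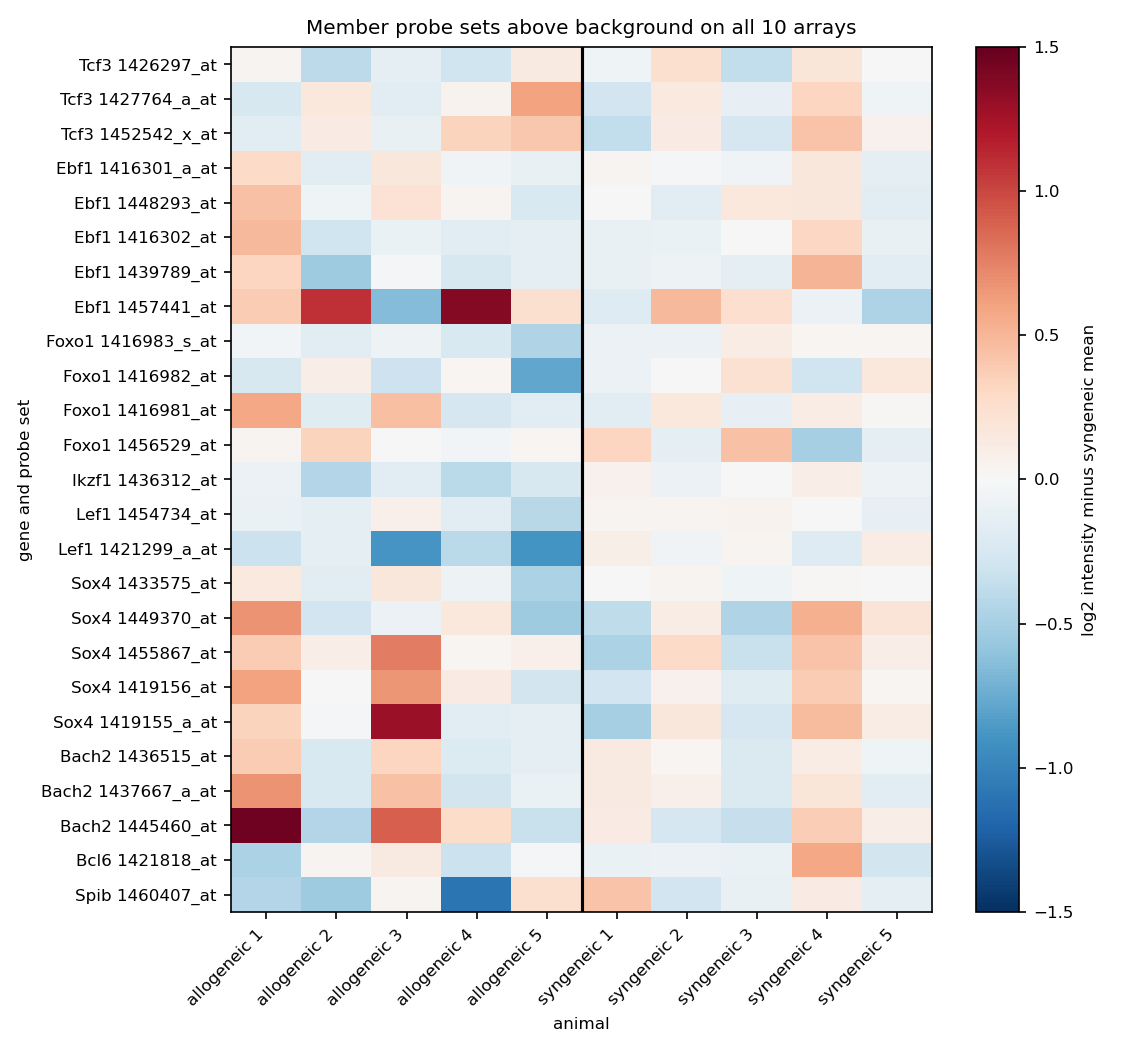
Log2 intensity minus the syngeneic mean (colour) for the 25 probe sets above the background limit on all 10 arrays (y axis), by animal (x axis, allogeneic left of the line). Bach2 is red in allogeneic animals 1 and 3 on all 3 probe sets, and the leading Ikzf1 probe set is blue in the 5 allogeneic animals. For 21 of the 25 probe sets the allogeneic animals lie on both sides of the syngeneic mean.

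Of 27 measured further B-lineage transcription factors 0 rose or fell by limma, 26 exceeded the limit on all arrays, and 8 differences were positive and 19 negative, with a median of -0.105. The nearest to passing was Pou2f2, which encodes the octamer-binding factor OCT2, at 8.74 ± 0.36 in allogeneic and 9.70 ± 0.33 in syngeneic animals (SD, n = 5 each), a difference of -0.97 (SE 0.22, adjusted p = 0.0964). Its groups did not overlap, which 2.37% of all probe sets showed in this direction. Gfi1, a zinc finger repressor gene, differed by -0.97 (SE 0.29, adjusted p = 0.156), and Myb, whose probe set was the brightest of the list, averaged 13.22 in allogeneic and 13.33 in syngeneic animals. The inhibitors of E proteins, of which 4 were measured, had 0 calls. Id1 differed by 0.48 (SE 0.18, adjusted p = 0.223) and Id2 by -0.26 (SE 0.20, adjusted p = 0.526), and Id4 never exceeded the limit.

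Most of the listed genes of B precursors were above background. Of 8 early precursor genes 6 exceeded the limit on all 10 arrays and 0 rose or fell, with a median difference of -0.003. Cd24a, a surface antigen of immature lymphocytes, averaged 13.85 in allogeneic and 13.84 in syngeneic animals, and Enpep, the BP-1 antigen of pre-B cells, 12.44 in allogeneic and 12.43 in syngeneic animals. Cd93 differed by -0.16 and Ptprc by -0.19, with adjusted p-values of 0.599 and 0.584. Kit and Cd34, genes of earlier progenitors, never exceeded the limit. Of 7 mature B-cell markers 0 rose or fell, and 1 difference was positive and 6 were negative, with a median of -0.158. The positive one was that of H2-Aa, an MHC class II gene (0.88, SE 0.25, adjusted p = 0.147). Cd74, its invariant chain partner, averaged 12.82 in allogeneic and 12.83 in syngeneic animals.

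Markers of other cells that the sort could hold gave 0 calls in any list. The summed intensity of 13 macrophage and monocyte markers was 13097 to 14794 in allogeneic and 9732 to 11932 in syngeneic animals. Mpeg1 differed by 0.68 (SE 0.23, adjusted p = 0.186 by limma) and Fcgr3 by 0.21 (adjusted p = 0.504). These were the brightest markers of the list and weigh most in the sum, so it does not measure macrophage or monocyte content. Of the 13 differences 6 were positive and 7 negative, with a median of -0.062. Among the negative ones were Ccr2 (-0.42, adjusted p = 0.644), C1qb (-0.32, adjusted p = 0.904) and Cd68 (-0.19, adjusted p = 0.778). Adgre1 exceeded the limit on 3 of 5 allogeneic and 0 of 5 syngeneic arrays (adjusted p = 0.321), while Cd14 and Itgam never exceeded the limit. The part of such cells in the lower Pax5 and Lef1 values was not tested. The sum of 10 T-cell markers was 5800 to 7173 in allogeneic and 5539 to 6770 in syngeneic animals. Most of it came from Cd2, at 12.61 in allogeneic and 12.46 in syngeneic animals, so it does not measure T-cell content. Of the 10, 4 exceeded the limit on all arrays, as did 3 of 7 NK-cell markers. In the other sums too the brightest markers weigh most. The sum of the NK-cell markers was 1238 to 2030 in allogeneic and 999 to 1491 in syngeneic animals, and that of 9 granulocyte markers 1289 to 7629 in allogeneic and 1923 to 4779 in syngeneic animals. Among 7 dendritic cell markers the sum was 787 to 1395 in allogeneic and 605 to 1105 in syngeneic animals. The 5 erythroid markers summed to 129 to 195 in allogeneic and 141 to 166 in syngeneic animals, and 9 markers of stroma and endothelium to 852 to 1017 in allogeneic and 621 to 839 in syngeneic animals. Differences were positive for 6 of 10 T-cell, 5 of 7 NK-cell, 7 of 9 granulocyte, 5 of 7 dendritic cell, 2 of 5 erythroid and 8 of 9 stroma and endothelium markers. Genes that exceeded the limit on no array were Cd8b1 of the T-cell list, Ncr1, Klrk1, Eomes and Klra8 of the NK-cell list, Csf3r, Hba-a1, Itgax, Batf3 and Cxcl12. The members nearest to passing were Gzma, a granzyme gene of the NK list (1.06, SE 0.26, adjusted p = 0.110), and Zbtb46 of the dendritic list (0.58, SE 0.16, adjusted p = 0.138). Adjusted p-values were 0.192 for Lat and 0.323 for Bcl11b of the T-cell list, 0.215 for Camp and 0.396 for Mpo of the granulocyte list, 0.311 for Epor of the erythroid list, and 0.256 for Pecam1 and 0.280 for Col1a2 of the stroma list. The brightest genes of these lists, Cd2, S100a8, Klf1 and Ccr7, had adjusted p-values of 0.585, 0.758, 0.5 and 0.325 in that order.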

How the data were processed

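Sorted leukaemia from 10 animals was measured, and the values deposited by the authors are linear intensities, 1 for each probe set. Per the labels' protocols, NuGEN kits turned the RNA into biotinylated cDNA. How the authors summarised and scaled probes is not stated in the labels or the table. The intensities were log2 transformed, then quantile normalized over 45101 probe sets, since the deposited columns did not share 1 distribution, and 64 control probe sets were then left out. The number of arrays limits the precision. Names came from the platform annotation, updated by gene identifier for 34741 of 34945 probe sets with 1 symbol; 932 had several symbols and 9160 none. The background limit was the 95th percentile of 27 probe sets for Bacillus transcripts on each array.

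Groups were compared with limma 3.58.1 (lmFit and eBayes, R 4.3.3) over all 45037 tested probe sets, with Benjamini-Hochberg adjusted p-values called under 0.05. Every adjusted p printed is limma's. The fit was tested on simulated data of 45037 probe sets, each with the same SD in both groups. There 72.0% of probe sets raised by 2 on the log2 scale were called and 5.22% of calls were false. Alternatives covered normalization, an offset, filters, the handling of several probe sets, the variance model, array weights, an animal-number block and left-out arrays.

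The members and the 15 gene lists (148 genes, 134 measured) were chosen with earlier results of these data known. Named were all members with their probe sets, up to 2 genes of smallest p and the brightest gene per list, and the 5 genes most like Pax5. Cd79a, Blnk, Csf1r, Flt3, Notch1, Cd28, Enpep, Kit, Cd34, Prdm1, Id4, Ccr2, C1qb, Cd68 and the markers that never exceeded the limit fall outside it and were chosen with their values in view. Promoter windows are RefSeq sequences of GRCm38.p6. Animals shared numbers 1 to 5 across groups. Same-numbered animals deviated together for numbers 1 and 2 (correlations 0.34 and 0.367, against at most 0.293 and 0.329 with other numbers). For numbers 3, 4 and 5 the correlations were -0.012, -0.244 and -0.153, below the highest with another number. So few correlations cannot decide whether the numbers pair the animals, and the main fit used no pairing.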

Additional observations from a re-analysis of the deposited data

Results flagged for a closer look

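Among 64 groups of 5 animals (32 probe sets in 2 groups), 7 held a sample far from the other 4. Chance gives about 1 in 20 for independent groups with normal values, but probe sets of 1 gene share their animals. The share over all probe sets was not computed, so the count is not read as a trait of these genes. For Pax5 on 1454401_at allogeneic animal 3 was low, at 2.16, where the other allogeneic animals had 4.72 to 5.06. For Pax5 on 1421765_at allogeneic animal 2 was low, at 2.31, where the others had 3.68 to 4.18. Ebf1 on 1416302_at was high in allogeneic animal 1, at 12.24 against 11.46 to 11.66, and in syngeneic animal 4, at 12.07 against 11.64 to 11.76. Syngeneic animal 4 was also high for Ebf1 on 1439789_at, at 11.39 against 10.71 to 10.80, and for Bcl6 on 1421818_at, at 7.69 against 6.84 to 7.02. Foxo1 on 1456529_at was high in allogeneic animal 2, at 7.60 against 7.23 to 7.31.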

How the results depend on the processing

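No member gene's leading probe set passed under any of the 20 alternative settings (19 for Pax5, whose probe set fell out when the lower 50% of probe sets was left out). The count of member probe sets that passed was 0 in all of them except 1 each with array weights, with allogeneic animal 1 left out, and with allogeneic animals 1, 3 and 4 left out, each time Sox4 1458332_x_at. Leaving out single animals gave between 0 and 1 such calls. The Pax5 difference kept its sign, from -1.39 to -0.53, and from -1.39 to -0.66 when single animals were left out. Over all probe sets 185 passed (122 higher, 63 lower), against 169 without quantile normalization (125 higher, 44 lower), 510 with an offset of 16 (266 higher, 244 lower), 631 without the lower 50% of probe sets, 616 above the limit on at least 5 arrays, 106 with 1 probe set per gene, 71 with the mean per gene, 482 with trend and robust estimation, 1398 with array weights (553 higher, 845 lower) and 1940 without allogeneic animals 1, 3 and 4 (638 higher, 1302 lower). Leaving out single animals gave 70 to 2022. It gave 2022 without allogeneic animal 1 (631 higher, 1391 lower), 89 without allogeneic animal 4, and 73, 76, 85, 111 and 70 without syngeneic animals 1 to 5. With the animal number as a replicate block 7 passed, none of them members, and Pax5 stood at -1.21 (adjusted p = 0.336). Fewer probe sets or genes were tested in the filtered and per-gene settings, and the cause of the other shifts was not tested.

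Small differences turned sign. Ebf1 stood at -0.034 without quantile normalization, -0.026 with array weights, -0.144 without allogeneic animals 1, 3 and 4, and between -0.044 and 0.072 without single animals (negative without allogeneic 1, allogeneic 3 or syngeneic 5). Bach2 stood at -0.028, -0.069 and -0.178 in the same 3 settings and between -0.058 and 0.093 without single animals (negative without allogeneic 1, allogeneic 3 or syngeneic 3). The mean per gene gave 0.021 for Tcf3, 0.181 for Sox4 and 0.236 for Bcl6. Without single animals Sox4 ran from -0.142 to 0.018 (positive without allogeneic 5) and Bcl6 from -0.201 to 0.014 (positive without syngeneic 4), and Bcl6 was 0.008 without allogeneic animals 1, 3 and 4.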
